A study of Mus musculus with 15 samples.

Results

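Apolipoproteins are the proteins that wrap lipids into the particles of blood plasma, and the liver is the main source of most of them. Described here in mouse livers are 10 of the 18193 genes that the array names: Apoa1, Apoa2, Apoa4, Apoa5, Apob, Apoc1, Apoc3, Apoe, Apof and Apom. Every probe set with 1 of these symbols as its only annotated symbol was taken, which gave 16 probe sets: 4 for Apoa1, 2 each for Apoa4, Apob and Apom, and 1 for each of the other 6 genes. All 16 passed the filter on dim probe sets, a log2 value of at least 4 on at least 3 arrays.

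The study followed liver injury in mice in relation to the gut microbiota and Tlr4, the receptor for bacterial lipopolysaccharide, with 1 array per liver sample. The antibiotic group (4 arrays) held C3H/HeOuJ mice, wild type for Tlr4, that drank ampicillin, neomycin and metronidazole (1 g/l each) with vancomycin (500 mg/l) for 2 weeks from the age of 10 weeks, and were then treated like the next groups. The treated mutant group (4 arrays) held C3H/HeJ mice with the Tlr4 change that the labels write as P712H. Like the treated wild-type group (treated WT, 4 arrays of C3H/HeOuJ mice), they received diethylnitrosamine (DEN, a liver carcinogen) once at 12 weeks (100 mg/kg) and carbon tetrachloride (CCl4, a liver toxin) at 13 weeks and at 15 weeks (0.5 ml/kg), and died 48 hours after the last CCl4. The untreated wild-type group (untreated WT, 3 arrays) held C3H/HeOuJ mice of the same age, 15 weeks, without any of these agents. The labels give 14 of the 15 arrays as male and no sex for 1 mutant array. C3H/HeJ is another substrain, so the mutation and the rest of its background cannot be told apart here, and no untreated mutant and no antibiotic group without DEN and CCl4 was analysed. The antibiotics ended when DEN was given.

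Apob is the scaffold of very low density lipoprotein (VLDL) and, after lipolysis, of low density lipoprotein, and it stays with its particle for life. Apoa1 and Apoa2 build high density lipoprotein (HDL). The smaller apolipoproteins move between particles: Apoe is the ligand of hepatic lipoprotein receptors, Apoc1 and Apoc3 slow the clearance of triglyceride-rich particles, and Apoa5 speeds their lipolysis. Apoa4 rides on chylomicrons, VLDL and HDL and is made in the intestine and, in rodents, also in the liver. Apom carries sphingosine 1-phosphate on HDL, and Apof is a minor protein of HDL and low density lipoprotein known in humans as an inhibitor of lipid transfer.

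Apoa1, Apoc3, Apoa4 and Apoa5 lie side by side on mouse chromosome 9 in the RefSeq gene table of assembly GRCm38.p6, in that order. Apoc1 and Apoe are neighbours on chromosome 7, with Apoc4 next to Apoc1. The RefSeq promoter table of the same assembly holds 300 bases for each start, 250 before it and 50 after it, and had 11 promoters for 7 of the 10 genes. Promoters are printed for the genes with both probe sets higher in treated WT livers (Apoa4 and Apom), for Apob, lower with both, and for Apoa1, a neighbour of Apoa4 that did not pass the test. All are written 5′ to 3′ on the strand of the gene. Capitals mark CAAAGTTCA in the Apoa4 promoter, CAAAGGTC (as its reverse, GACCTTTG) and TATAAA in that of Apob, and GGGTCA at 2 places in that of Apom, while the Apoa1 window held none of the motifs searched.
Apoa4 promoter, chr9:46240594-46240893, plus strand: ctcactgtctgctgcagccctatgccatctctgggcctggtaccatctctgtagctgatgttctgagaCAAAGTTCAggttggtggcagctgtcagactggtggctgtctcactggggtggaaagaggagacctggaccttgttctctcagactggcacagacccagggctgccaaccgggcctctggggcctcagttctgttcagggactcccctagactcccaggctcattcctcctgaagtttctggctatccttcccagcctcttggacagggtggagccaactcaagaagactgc
Apom promoter, chr17:35131752-35132051, minus strand: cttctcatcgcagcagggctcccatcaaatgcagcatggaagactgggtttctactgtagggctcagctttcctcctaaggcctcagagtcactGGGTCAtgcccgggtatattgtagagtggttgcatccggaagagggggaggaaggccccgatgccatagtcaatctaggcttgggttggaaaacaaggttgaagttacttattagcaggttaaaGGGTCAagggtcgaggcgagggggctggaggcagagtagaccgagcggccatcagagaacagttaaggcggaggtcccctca
Apob promoter, chr12:7977427-7977726, plus strand: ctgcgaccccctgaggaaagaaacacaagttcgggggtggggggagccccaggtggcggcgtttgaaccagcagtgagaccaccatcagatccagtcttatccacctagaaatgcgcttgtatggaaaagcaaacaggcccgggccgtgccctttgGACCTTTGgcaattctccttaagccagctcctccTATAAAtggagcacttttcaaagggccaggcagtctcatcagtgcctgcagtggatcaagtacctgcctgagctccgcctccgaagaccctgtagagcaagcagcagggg
Apoa1 promoter, chr9:46228380-46228679, plus strand: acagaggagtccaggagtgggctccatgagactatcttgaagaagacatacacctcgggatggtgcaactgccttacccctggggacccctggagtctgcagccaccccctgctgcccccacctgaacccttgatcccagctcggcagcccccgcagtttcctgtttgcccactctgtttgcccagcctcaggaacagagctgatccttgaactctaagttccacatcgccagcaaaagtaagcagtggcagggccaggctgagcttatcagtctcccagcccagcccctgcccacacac

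CAAAGTTCA, a form of the binding motif of the nuclear receptor HNF4, was in the Apoa4 promoter with its first base at -182 from the start, and 0.39% of the 32851 promoters in the table held it on either strand. CAAAGGTC, a related form, began at -94 in the Apob promoter, was also in 1 promoter of Apoe, and was held by 1.17% of all promoters. GGGTCA, a hexamer bound by nuclear receptors, began at -156 and at -32 in the Apom promoter and was also found for Apoa5 and Apoe, against 13.7% of all promoters. These 3 motifs were added after the promoters had been read. Of the others searched on both strands, CAAAGTCCA (0.475% of all promoters) and TGACGT (7.51%) were in no member promoter, GTTAAT (7.1%) was in 1 of Apoe, AGGTCA (16.3%) in 1 of Apoa2, and TATAAA (13.6%) in those of Apoa2, Apoa5, Apob and Apoe, beginning at -60 for Apob. A match describes these letters only.

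Levels are log2 values computed by the authors with GCRMA, so that 1 unit is a 2-fold difference in signal. Between 34.6% and 36.7% of the probe sets on an array reached a log2 value of 4, correlations between arrays of a group ran from 0.976 to 0.993 over the 15541 probe sets tested, and the number of arrays limits the precision. Albumin (Alb), the main plasma protein of hepatocytes, had mean levels of 14.68 to 14.76 in the 4 groups. Tlr4 itself was under 4 on every array, with means of 2.62 in antibiotic, 2.39 in treated mutant, 3.46 in treated WT and 2.43 in untreated WT livers, and a probe set does not read a point mutation. The cell division gene Mki67 averaged 9.66 in antibiotic, 9.03 in treated mutant and 11.25 in treated WT livers, against 2.64 in untreated WT livers. Cyp2e1, the enzyme that activates CCl4, averaged 11.65, 10.8 and 11.02 in these treated groups, against 14.33 in untreated WT livers.

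Apolipoproteins were among the brightest probe sets of the liver. Between 11 and 14 of their 16 probe sets were in the top 1% of each array, which began at 12.66 to 12.73, and the brightest of them reached 14.56 to 14.87 where the highest value on the arrays was 14.81 to 15.12. No deposited value says whether a probe set is saturated. Arrays of 1 group differed little, with within-group SDs from 0.02 to 0.47 and a median SD of 0.08. The plot of levels by group shows the 4 groups for each probe set.

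**Figure D1:**
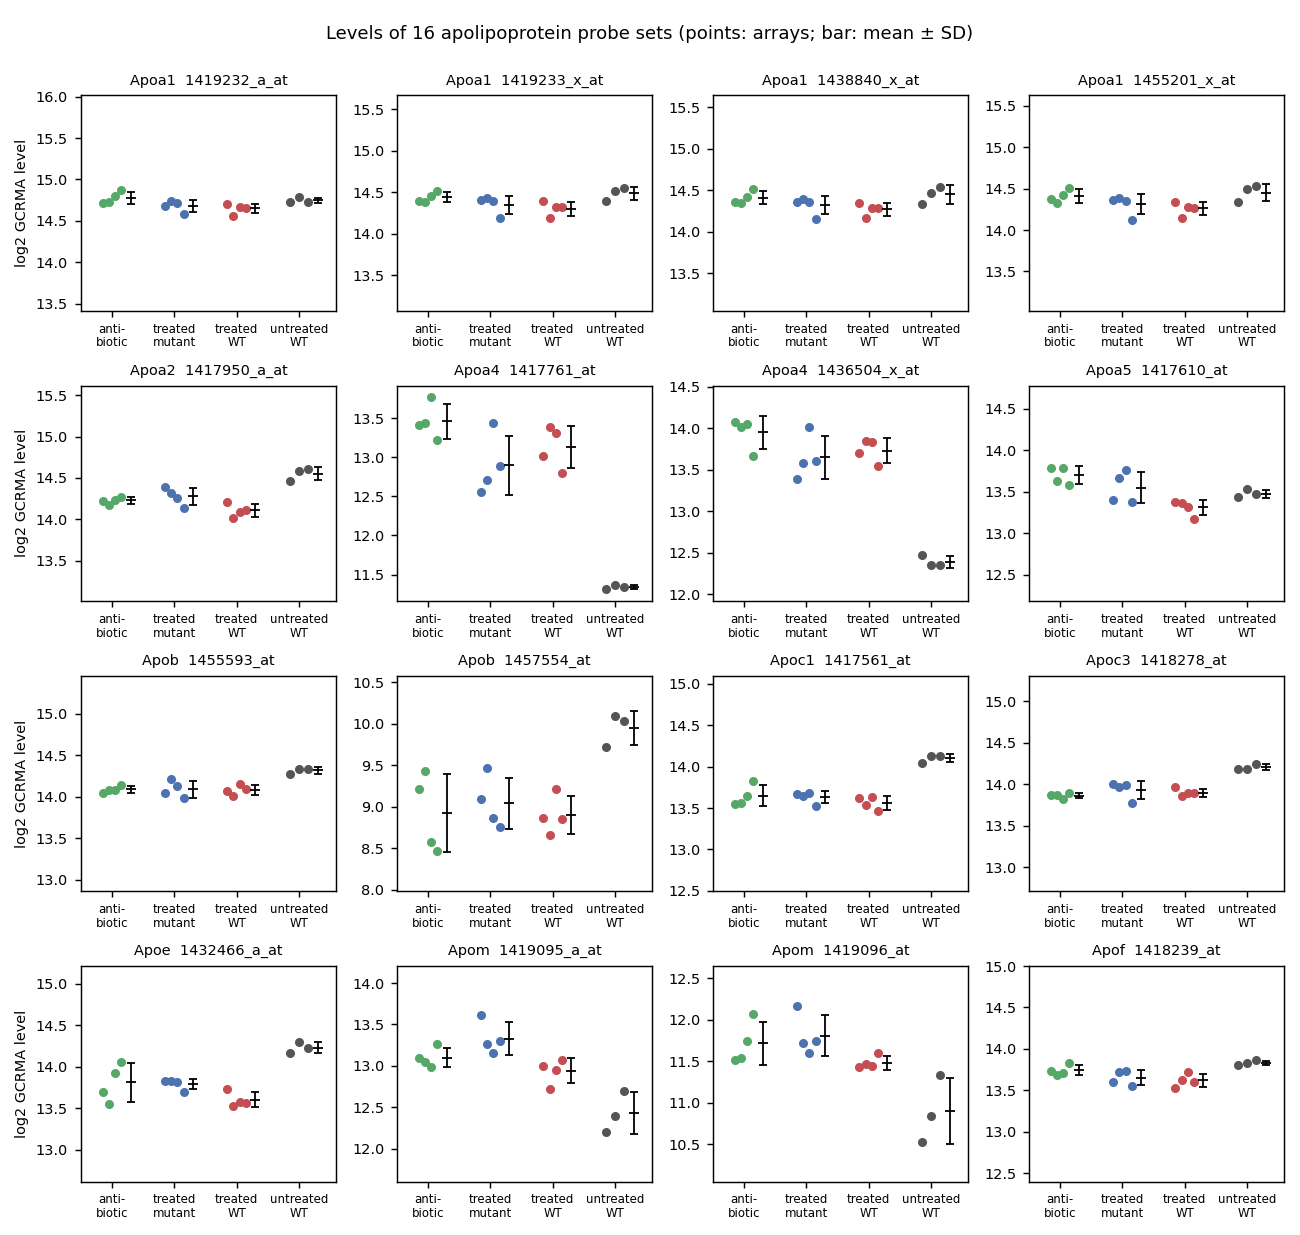
Levels of the 16 apolipoprotein probe sets: each panel is 1 probe set, the y axis is the log2 GCRMA level over a window placed around its own values, and the x axis holds the antibiotic, treated mutant, treated WT (4 arrays each) and untreated WT (3 arrays) groups. Points are arrays and bars are means ± SD. Both Apoa4 probe sets lie above untreated WT in the 3 treated groups, from 12.56 to 13.77 against 11.31 to 11.36 for 1417761_at, while the Apoa1 panels stay between 14.12 and 14.87 in all groups.

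In wild-type livers, apolipoproteins differed in both directions after DEN and CCl4. The share that passed was close to that of all tested probe sets. With each array centred on its median, only Apoa4 stayed higher, as given below. In treated WT against untreated WT livers, 10 of the 16 probe sets passed the test (limma over all tested probe sets, adjusted p under 0.05), against 59.9% of all tested probe sets. By gene, Apoa4 and Apom rose, Apoa2, Apob, Apoc1, Apoc3 and Apoe fell, and Apoa1, Apoa5 and Apof did not pass. The 4 probe sets that rose and the 6 that fell stand against 34.2% higher and 25.7% lower in all. The median difference was -0.19 over the 16 probe sets and 0.09 over all tested. Treated and untreated arrays were fully apart for 14 of the 16 (4 above, 10 below), against 64.3% of all tested probe sets.

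Apoa4 rose most. Probe set 1417761_at had levels of 13.02, 13.39, 13.31 and 12.8 in treated WT livers, against 11.31, 11.36 and 11.34 in untreated WT livers. Probe set 1436504_x_at had 13.7, 13.85, 13.84 and 13.54 in treated WT livers, against 12.47, 12.35 and 12.35 in untreated WT livers. Its _x_at ending marks possible cross-hybridisation. Every treated array lay over 1 unit above every untreated array with both probe sets. The log2 difference was 1.79 ± 0.20 (SE), a 3.46-fold higher level, with the first (limma, adjusted p = 2.69e-06) and 1.34 ± 0.15, 2.53-fold, with the second (adjusted p = 2.89e-06). The dimmer probe set gave the larger difference in this pair, by 0.45 units, with no overlap between the arrays of the groups (exact permutation test, two-sided, p = 0.0571, the smallest that 4 against 3 arrays allow; adjusted p = 0.171 over 21 such tests).

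Apom also rose. Its probe set 1419095_a_at had 13.0, 12.72, 12.95 and 13.07 in treated WT livers, against 12.2, 12.4 and 12.7 in untreated WT livers, and 1419096_at had 11.43, 11.47, 11.44 and 11.6, against 10.53, 10.84 and 11.33. The highest untreated array, replicate 3 with both, came close to the lowest treated one without overlap. The differences were 0.50 ± 0.14 (1.42-fold, adjusted p = 0.00743) and 0.58 ± 0.19 (1.5-fold, adjusted p = 0.0154). With each array centred on its median neither Apom probe set passed (0.27, adjusted p = 0.111, and 0.35, adjusted p = 0.116), and without untreated WT replicate 1 the second did not (0.40, adjusted p = 0.0994).

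Apoe, the receptor ligand, fell on every array: 13.73, 13.53, 13.58 and 13.56 in treated WT livers, against 14.17, 14.3 and 14.22 in untreated WT livers. Its log2 level dropped by 0.63 ± 0.12, to 64.7% of the untreated level (limma, adjusted p = 0.000435). Its neighbour Apoc1 had 13.62, 13.54, 13.63 and 13.46 in treated WT livers, against 14.04, 14.13 and 14.13 in untreated WT livers, a drop by 0.54 ± 0.10 (adjusted p = 0.000352). The groups were apart for both genes. The shift of Apoe relative to Apoc1 was -0.09 (exact permutation test, two-sided, p = 0.171, adjusted p = 0.299 over 21 tests, smallest possible p 0.0571).

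Apoa2 of HDL had 14.21, 14.02, 14.09 and 14.11 in treated WT livers, against 14.46, 14.59 and 14.61 in untreated WT livers, and dropped by 0.45 ± 0.10 (limma, adjusted p = 0.00111). Apoc3, the inhibitor of lipolysis, had 13.97, 13.86, 13.89 and 13.9 in treated WT livers, against 14.18, 14.19 and 14.25 in untreated WT livers, and dropped by 0.30 ± 0.09 (adjusted p = 0.0111). Neither gene's groups overlapped.

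For Apob the probe sets differed in the size of the change. The brighter one, 1455593_at, had 14.07, 14.01, 14.16 and 14.09 in treated WT livers, against 14.27, 14.33 and 14.34 in untreated WT livers, and dropped by 0.23 ± 0.09 (limma, adjusted p = 0.0411). The dimmer one, 1457554_at, had 8.86, 8.66, 9.21 and 8.85 in treated WT livers, against 9.72, 10.09 and 10.03 in untreated WT livers, and dropped by 1.05 ± 0.23 to 48.3% of the untreated level (adjusted p = 0.00133). Both fell with no overlap, and the dimmer one dropped by 0.82 more (exact permutation test, two-sided, p = 0.0571, the smallest possible, adjusted p = 0.171 over 21 tests). Which stretch of the Apob transcript each reads is not given in the sources used here. The call of the brighter probe set ended after quantile normalization (-0.14, adjusted p = 0.192), in a fit of only the groups compared (adjusted p = 0.0667) and without any 1 of 6 of the 7 arrays compared (adjusted p up to 0.106), all but treated WT replicate 3.

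Apoa1, the main protein of HDL, did not pass with any of its 4 probe sets. The differences were -0.10 to -0.19, with 95% intervals that together ran from -0.42 to 0.10 (adjusted p = 0.122 to 0.366). The brightest, 1419232_a_at, had 14.71, 14.56, 14.67 and 14.65 in treated WT livers, against 14.73, 14.79 and 14.73 in untreated WT livers. The treated arrays lay below by little. The other 3, whose _x_at endings mark possible cross-hybridisation, ran from 14.14 to 14.39 in treated WT livers, against 14.33 to 14.55 in untreated WT livers. Apoa5, the activator of lipolysis, had 13.38, 13.36, 13.32 and 13.17 in treated WT livers, against 13.43, 13.53 and 13.47 in untreated WT livers (difference -0.17, 95% interval -0.41 to 0.08, adjusted p = 0.234). Apof had 13.53, 13.62, 13.72 and 13.6, against 13.8, 13.83 and 13.87 (difference -0.21, 95% interval -0.41 to -0.01, adjusted p = 0.0642). For Apoa5 and Apof every treated array was below every untreated one, although neither passed. With each array centred on its median all 6 of these probe sets passed as lower, and the count over the 16 was then 2 higher (Apoa4) and 12 lower, in place of 4 and 6. That centring moved the median over all tested probe sets to -0.14, from 0.09 as deposited, and the share of higher calls among all calls to 41.4%, from 57.1%. Some of these probe sets also passed as lower without centring. The 3 Apoa1 _x_at probe sets did so with array weights (limma, adjusted p = 0.0305 to 0.0428) and with a trended and robust prior (0.0333 to 0.0493). Apoa5 passed with array weights (adjusted p = 0.0374), and Apof in 6 of 24 other settings, centring included.

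None of the 3 genes of the cluster around Apoa4 on chromosome 9 passed as higher. Relative to each of them on the same array, the brighter Apoa4 probe set shifted by 1.44 against Apoa1, by 1.64 against Apoc3 and by 1.51 against Apoa5 in treated WT over untreated WT livers. In each of these 3 pairs the values of treated and untreated arrays were fully apart (exact permutation test, two-sided, p = 0.0571, the smallest that 4 against 3 arrays allow, adjusted p = 0.171 over 21 tests). These pairs were chosen after the values had been seen.

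The rise of Apoa4 was also set beside the changes of probe sets of like brightness. Brightness was the mean level over all 15 arrays, most of them treated. Of the 190 tested probe sets with a mean level of 13 or more, 12 of them apolipoprotein probe sets, 14 differed by at least 1 unit between treated WT and untreated WT livers (10 higher, 4 lower), and the median absolute difference was 0.38. Apoa4 1436504_x_at had the highest difference of the 190, ahead of Ran (1.32), a GTPase of nuclear transport. Among the 401 probe sets at 12 to 13, Apoa4 1417761_at ranked 9 from the top. In untreated WT livers 1436504_x_at averaged 12.39 and 1417761_at 11.34, under the lower bounds of these bins (13 and 12). Their higher treated arrays placed them there, so the ranks follow in part from the binning and are no separate evidence. Of all tested probe sets, 7.72% rose more than Apoa4 1417761_at and 11.9% rose more than Apoa4 1436504_x_at. Differences were larger among dim probe sets, with a median absolute value of 0.60 over the 8071 at 4 to 8.

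**Figure D2:**
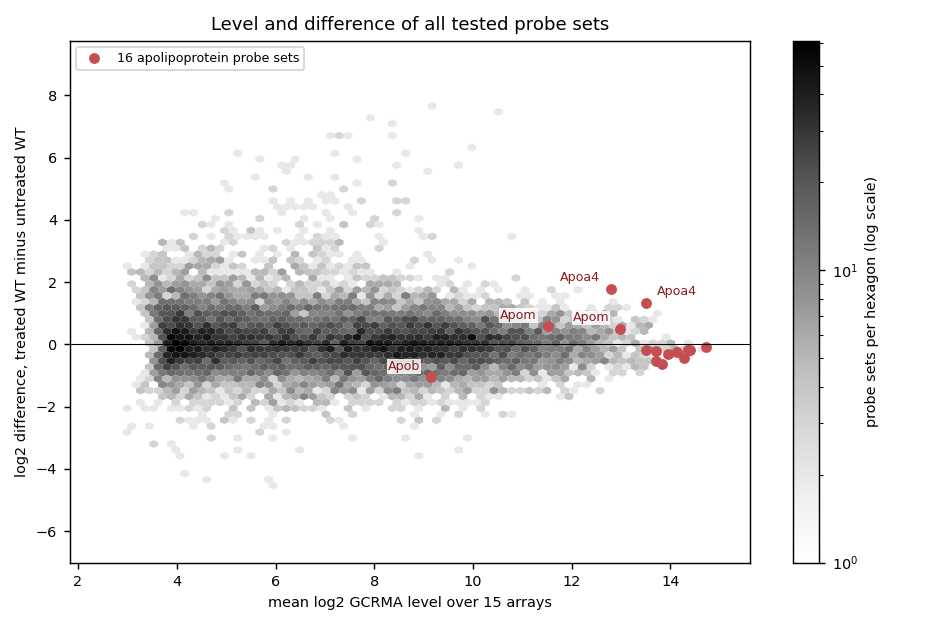
Log2 difference, treated WT minus untreated WT (y axis), against the mean log2 GCRMA level over 15 arrays (x axis) for all 15541 tested probe sets (grey hexagons, darker for more probe sets on a log scale), with the 16 apolipoprotein probe sets in red. The apolipoproteins sit at the bright end apart from the dimmer Apob probe set, and both Apoa4 points (1.79 and 1.34) stand above the other members.

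These are whole livers, in which fewer cells of a type and less RNA per cell cannot be told apart. Of 7 tested markers of hepatocytes, the main source of apolipoproteins, 2 fell in treated WT against untreated WT livers and none rose. For this and the marker counts below, 25.7% of all tested probe sets were lower and 34.2% higher. Serpinc1, the gene of antithrombin, had 13.0 ± 0.09 in treated WT livers (n = 4), against 13.74 ± 0.06 in untreated WT livers (SD, n = 3; -0.73, limma, adjusted p = 1.66e-05), and Hnf4a differed by -0.28 (adjusted p = 0.0267). The summed level of the markers, to which the brightest (Alb, Ttr and Fgb) contribute most, ran from 16.6 to 16.81 in treated WT livers, against 16.74 to 16.84 in untreated WT livers. Macrophages, which make Apoe, had 10 of 12 markers higher, with summed levels of 12.66 to 13.18 in treated WT livers, against 9.8 to 11.05 in untreated WT livers. All 7 stellate cell markers tested of 8 were higher, with summed levels of 13.47 to 13.7, against 10.81 to 11.96, and so were all 4 dividing cell markers tested, with 13.53 to 13.81, against 5.55 to 6.14. The part of these cells in the apolipoprotein differences was not tested. Of the enterocyte markers, for the other tissue that makes Apoa4, Apoa1 and Apob, 4 of the 5 on the array (Vil1, Cdx1, Cdx2 and Alpi) were under 4 on every array of every group, and Fabp2, which the liver may also express, averaged 11.19 in treated WT livers and 11.8 in untreated WT livers (adjusted p = 0.169).

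The mutant comparison asks whether levels after treatment differed in C3H/HeJ mice, whose Tlr4 is known not to pass on the signal of lipopolysaccharide. In treated mutant against treated WT livers 1 of the 16 probe sets passed, against 28.6% of all tested probe sets (12.5% higher, 16.1% lower). It was Apom 1419095_a_at, which had 13.61, 13.26, 13.16 and 13.3 in treated mutant livers, against 13.0, 12.72, 12.95 and 13.07 in treated WT livers. Every mutant array was above every wild-type one, and the difference was 0.39 ± 0.13 (1.31-fold, limma, adjusted p = 0.0386). The other Apom probe set, 1419096_at, had 12.17, 11.72, 11.6 and 11.74 in treated mutant livers, against 11.43, 11.47, 11.44 and 11.6 in treated WT livers, again without overlap, but did not pass (0.32 ± 0.17, adjusted p = 0.186). These were the 2 probe sets of the 16 without overlap, against 29.9% of all tested. The call for Apom ended without any 1 of 6 of the 8 arrays compared (adjusted p = 0.0545 to 0.123), all but treated WT replicate 4 and treated mutant replicate 3. It also ended with array weights (0.33, adjusted p = 0.051) and in a fit of only the 2 groups compared (adjusted p = 0.0532).

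The remaining 15 probe sets did not pass, with 95% intervals that together ran from -0.62 to 0.70. Of the 16 differences 14 were positive, with a median of 0.05 (0.02 over all tested). Probe sets of 1 gene, such as the 4 of Apoa1, are not separate observations. The share of positive differences over all tested probe sets is not given. Apoa5 had 13.4, 13.66, 13.76 and 13.38 in treated mutant livers, against 13.38, 13.36, 13.32 and 13.17 in treated WT livers (0.24, 95% interval 0.01 to 0.47, adjusted p = 0.111). Apoe had 13.83, 13.83, 13.82 and 13.7, against 13.73, 13.53, 13.58 and 13.56 (0.19, 95% interval -0.05 to 0.43, adjusted p = 0.216). For both genes the mutant arrays were mostly the higher ones, and the groups overlapped. Apoa2 lay between 14.14 and 14.39 in treated mutant livers, against 14.02 to 14.21 in treated WT livers (0.17, 95% interval -0.02 to 0.36).

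The 2 negative differences were those of Apoa4, which did not pass. With 1417761_at it had 12.56, 12.71, 13.44 and 12.89 in treated mutant livers, against 13.02, 13.39, 13.31 and 12.8 in treated WT livers (-0.23, 95% interval -0.62 to 0.16, adjusted p = 0.384). With 1436504_x_at it had 13.39, 13.58, 14.02 and 13.61, against 13.7, 13.85, 13.84 and 13.54 (-0.09, 95% interval -0.38 to 0.21). Mutant replicate 3 was the highest of its group with both, above every treated WT array. Relative to its neighbour Apoa5 on the same array, Apoa4 was lower by 0.33 in treated mutant livers with no overlap (shift -0.33, exact permutation test, two-sided, p = 0.0286, the smallest that 4 against 4 arrays allow, adjusted p = 0.171 over 21 tests). Apoe relative to Apoc1 shifted by 0.13, also without overlap and with the same p-values.

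Among the 190 brightest probe sets 7.89% passed in this comparison and the median absolute difference was 0.10, against 30.4% and 0.32 over the 8071 at 4 to 8. None of the 12 macrophage markers rose and 11 fell in treated mutant against treated WT livers. Their summed level was 10.35 to 10.7 in treated mutant livers and 12.66 to 13.18 in treated WT livers. The macrophage marker Cd68 averaged 9.32 in treated mutant and 9.29 in treated WT livers. All 7 stellate markers tested fell and none of the 7 hepatocyte markers passed, with 12.5% of all tested probe sets higher and 16.1% lower. The part of these cells was not tested.

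The antibiotic comparison asks whether levels after DEN and CCl4 differed in mice given antibiotics against gut bacteria before DEN. In antibiotic against treated WT livers 1 of the 16 probe sets passed, against 12.3% of all tested probe sets (4.47% higher, 7.86% lower). It was Apoa5, with 13.79, 13.63, 13.79 and 13.58 in antibiotic livers, against 13.38, 13.36, 13.32 and 13.17 in treated WT livers. All 4 antibiotic arrays were above all treated WT arrays, by 0.39 ± 0.11 on average (1.31-fold, limma, adjusted p = 0.0296). Without any 1 of 5 of the 8 arrays compared (antibiotic replicates 1 and 3, treated WT replicates 2, 3 and 4) the adjusted p was 0.053 to 0.0927, and in a fit of only these groups it was 0.0575.

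The next highest difference was that of Apoa4 1417761_at. It had 13.41, 13.44, 13.77 and 13.22 in antibiotic livers, against 13.02, 13.39, 13.31 and 12.8 in treated WT livers (0.33, 95% interval -0.06 to 0.72, adjusted p = 0.264). With 1436504_x_at it had 14.08, 14.02, 14.05 and 13.66, against 13.7, 13.85, 13.84 and 13.54 (0.22, 95% interval -0.08 to 0.51, adjusted p = 0.334). The groups overlapped through antibiotic replicate 4, the lowest of its group with both probe sets. Apoe spread more in antibiotic livers, with 13.69, 13.55, 13.93 and 14.06, against 13.73, 13.53, 13.58 and 13.56 in treated WT livers (0.21, 95% interval -0.03 to 0.45, adjusted p = 0.247).

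The other members differed by -0.04 to 0.24 and did not pass. Over the 16 probe sets 15 differences were positive, with a median of 0.14 against -0.03 over all tested. Here too, probe sets of 1 gene are not separate observations, and no share of positive differences over all tested is given. All 95% intervals together ran from -0.44 to 0.72. The brightest Apoa1 probe set had 14.72, 14.73, 14.8 and 14.87 in antibiotic livers, above the 14.71, 14.56, 14.67 and 14.65 of treated WT livers on every array, and did not pass (0.13, adjusted p = 0.335). With Apoa5 it made 2 probe sets of 16 without overlap, against 17.1% of all tested. Of the 12 macrophage markers 9 fell in antibiotic against treated WT livers, with 7.86% of all tested probe sets lower. Their summed level was 11.53 to 12.47 in antibiotic livers and 12.66 to 13.18 in treated WT livers. Cd68 of this list went the other way and did not pass (0.86, limma, adjusted p = 0.0592). None of the 7 hepatocyte markers passed, against 12.3% of all tested. The part of these cells was not tested.

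**Figure D3:**
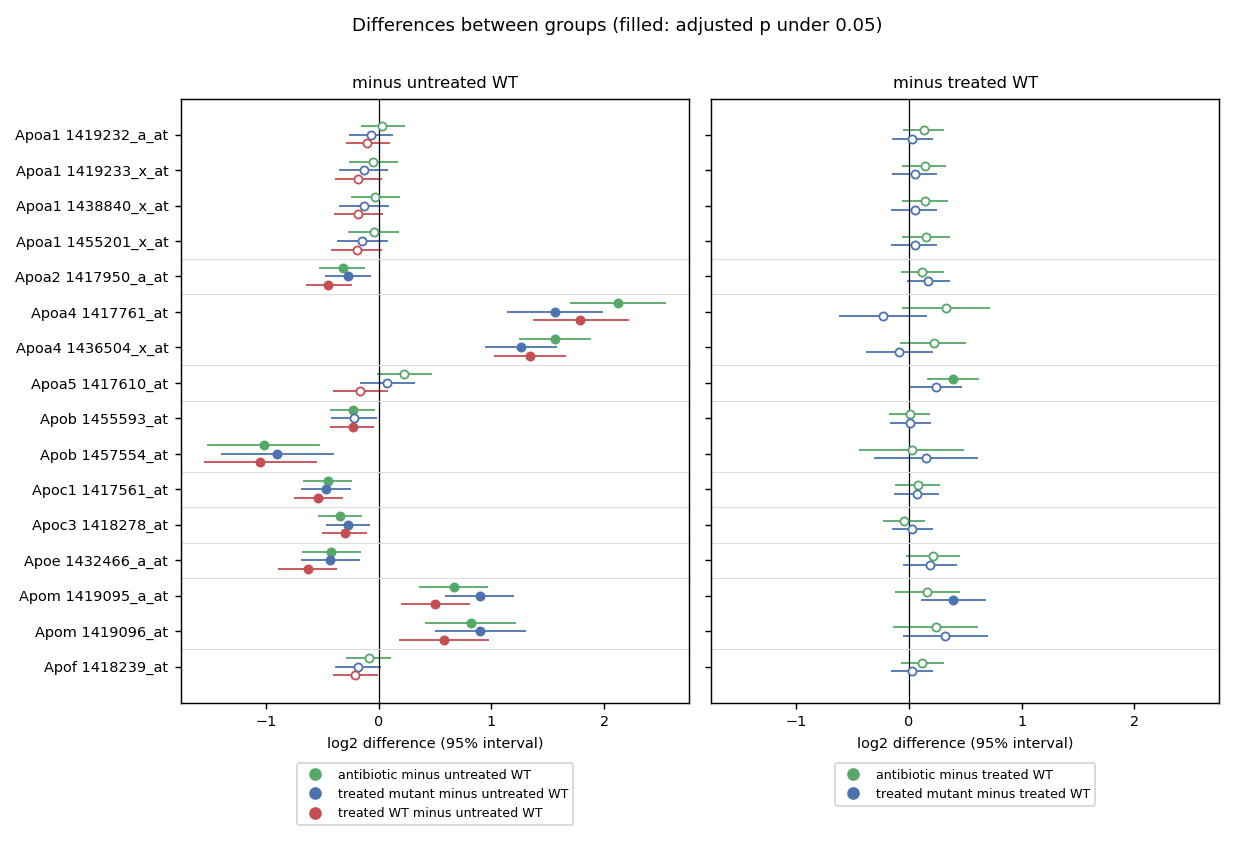
Log2 differences with 95% intervals for the 16 probe sets: left, antibiotic, treated mutant and treated WT each minus untreated WT; right, antibiotic and treated mutant each minus treated WT, with filled points for adjusted p under 0.05. On the left Apoa4 lies at 1.26 to 2.12 and Apom at 0.50 to 0.90 in all 3 treated groups, and on the right 1 point in each comparison is filled, Apom for the mutant (0.39) and Apoa5 for the antibiotic group (0.39).

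The antibiotic and mutant groups were also set against the untreated WT arrays, which all 3 of these comparisons share. In antibiotic against untreated WT livers 10 of the 16 passed (4 higher, 6 lower), against 56% of all tested (32.6% higher, 23.4% lower). In treated mutant against untreated WT livers 9 passed (4 higher, 5 lower), against 51% of all tested (30.7% higher, 20.3% lower). Arrays were fully apart for 11 of the 16 in both, against 56.4% of all tested for the antibiotic and 54.4% for the treated mutant group. Apoa4 was higher by 2.12 and 1.56 with its probe sets in antibiotic livers (adjusted p = 7.7e-07 and 9.67e-07), and by 1.56 and 1.26 in treated mutant livers (adjusted p = 1.79e-05 and 1e-05). Apom was higher by 0.67 and 0.82 in antibiotic livers, and by 0.90 with both probe sets in treated mutant livers (adjusted p = 0.000139 and 0.00112). Apoe was lower by -0.42 in antibiotic and -0.43 in treated mutant livers, Apoc1 by -0.45 and -0.47, Apoc3 by -0.34 and -0.27, Apoa2 by -0.32 and -0.27, and the dimmer Apob probe set by -1.02 and -0.90, all passing. The brighter Apob probe set differed by -0.23 in antibiotic livers (adjusted p = 0.0489) and by -0.22 in treated mutant livers, where it did not pass (adjusted p = 0.0592). Leaving out any 1 of the 7 antibiotic and untreated WT arrays ended its call in antibiotic livers (adjusted p = 0.0523 to 0.121). The calls of Apoa2 and Apoc3 in treated mutant livers ended without 1 array (Apoa2 without untreated WT replicate 2 or 3 or treated mutant replicate 3 or 4, adjusted p = 0.053 to 0.0961; Apoc3 without untreated WT replicate 2 or 3 or treated mutant replicate 4, adjusted p = 0.0538 to 0.0752). They also ended under quantile normalization (Apoa2 adjusted p = 0.0803, Apoc3 0.0515) and in a fit of only the 2 groups compared (Apoa2 0.076, Apoc3 0.071). Apoa1, Apoa5 and Apof passed in neither comparison. Since untreated mutant livers were not analysed here, the mutant values hold both the treatment and the substrain.

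Between the antibiotic and treated mutant groups none of the 16 probe sets passed with limma, against 10.5% of all tested (5.62% higher, 4.84% lower), none were fully apart (14.5% of all tested), and 2 had an unadjusted p under 0.05. Both were Apoa4, higher in antibiotic livers by 0.56 (95% interval 0.17 to 0.95, adjusted p = 0.0662) and 0.30 (0.01 to 0.60, adjusted p = 0.178). Treated mutant replicate 3 was the highest Apoa4 array of its group, and without it both passed (0.74, adjusted p = 0.0105, and 0.43, adjusted p = 0.0433). By mean level, Apoa4 1417761_at stood at 13.46 ± 0.23 in antibiotic, 13.13 ± 0.27 in treated WT and 12.90 ± 0.38 in treated mutant livers (SD, n = 4 each) and at 11.34 ± 0.02 in untreated WT livers (n = 3). In this order, antibiotic against treated WT (adjusted p = 0.264) and treated mutant against treated WT (adjusted p = 0.384) did not pass, and treated mutant against untreated WT did.

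By the brightest probe set of each gene, Apoa4 alone of the 10 had group means that spanned at least 1 unit (1.56). The dimmer Apob probe set, with means of 8.90 in treated WT and 9.95 in untreated WT livers, was not used for this. The genes most like Apoa4 (1436504_x_at) over the 15 arrays, each centred on its own mean, were Banf1 (root mean square difference 0.17) and Ints2 (0.172). Banf1 averaged 9.94 in antibiotic, 9.66 in treated mutant and 9.84 in treated WT livers, against 8.42 in untreated WT livers, and Ints2 8.66, 8.52 and 8.59, against 7.3. This is a description of shape.

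Genes that act on the same particles were read from 7 lists, each gene by its brightest probe set. Among the other apolipoproteins and proteins carried on lipoproteins, 10 of 11 were tested, and in treated WT against untreated WT livers 1 rose and 5 fell, against 59.9% of all tested probe sets (34.2% higher, 25.7% lower). Their median was -0.24, with 0.09 over all tested. Apoc4, the neighbour of Apoc1, dropped by 1.25 ± 0.15 (limma, adjusted p = 5.13e-06), Pon1, an HDL enzyme that hydrolyses oxidised lipids, dropped by 1.41, and Saa4, the constitutive serum amyloid A, dropped by 1.57. Apoc2, the cofactor of lipoprotein lipase, was the member that rose (0.76 ± 0.14, adjusted p = 0.000222). In the mutant comparison Apoc2 and Apoc4 went opposite ways, Apoc2 lower (-0.57, adjusted p = 0.0035) and Apoc4 higher (0.54, adjusted p = 0.00913), and these 2 were the ones that passed of 10, against 28.6% of all tested. In antibiotic against treated WT livers Saa4 alone of the 10 passed (0.43, adjusted p = 0.041), against 12.3% of all tested.

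Of the genes of VLDL assembly and secretion 15 of 16 were tested, and 2 rose and 7 fell in treated WT against untreated WT livers (median -0.10), with 34.2% of all tested higher and 25.7% lower. Mia3, which helps to load large cargo at the endoplasmic reticulum, dropped by 1.15 (adjusted p = 0.000133), the sorting receptor Sort1 dropped by 0.88, and Tm6sf2, needed to lipidate VLDL, rose by 0.98 (adjusted p = 0.00821). Mttp, which loads lipid onto Apob, differed by 0.08 and did not pass (adjusted p = 0.558). In treated mutant against treated WT livers 3 of the 15 rose and none fell (Mia3 0.85, the triglyceride synthase Dgat1 0.82 and Sort1 0.67), with 12.5% of all tested higher and 16.1% lower. In antibiotic against treated WT livers Dgat1 rose (0.73, adjusted p = 0.0317) and none fell, with 4.47% of all tested higher and 7.86% lower.

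Of the genes of HDL formation and remodelling 8 of 9 were tested, and 1 rose and 3 fell in treated WT against untreated WT livers (median 0.17), 4 of 8 against 59.9% of all tested. Abcg1, a cholesterol exporter that macrophages also express, rose by 1.57 (adjusted p = 4.02e-06), the phospholipid transfer protein Pltp dropped by 1.11 and Lcat, which esterifies the cholesterol of HDL with Apoa1 as cofactor, dropped by 1.00 (adjusted p = 0.00133). Between treated mutant and treated WT livers Abcg1 was lower (-1.26) and Scarb1, the hepatic HDL receptor, higher (0.54, adjusted p = 0.00428), 2 of 8 against 28.6% of all tested. In antibiotic against treated WT livers Scarb1 was higher (0.67, adjusted p = 0.00408) and Abca1, which lipidates Apoa1, lower (-0.36, adjusted p = 0.0188), 2 of 8 against 12.3% of all tested.

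Of the lipoprotein receptors and uptake genes 8 of 13 were tested, and 2 rose and 1 fell in treated WT against untreated WT livers (median -0.06), 3 of 8 against 59.9% of all tested. Sdc1, a heparan sulfate proteoglycan core, rose by 0.66, and the remnant receptor Lrp1 differed by -0.77. Hspg2, another such core, was called higher against an untreated WT mean (3.93) below the detection level of 4, so no size is given. In treated mutant against treated WT livers 1 rose and 3 fell, 4 of 8 against 28.6% of all tested. Mylip, which marks lipoprotein receptors for degradation, was lower (-1.68, adjusted p = 0.000551). Vldlr, which rose, was called against a treated WT mean (2.95) below the detection level, so no size is given. It was under 4 on every treated WT and untreated WT array (highest 3.21 and 3.94) and averaged 3.38 in antibiotic livers. It passed the filter on dim probe sets mainly through the mutant arrays, so it was tested largely because of the group called higher. In antibiotic against treated WT livers none of the 8 passed with limma, against 12.3% of all tested. An unadjusted p under 0.05 was found for 2 of them, and no share over all tested is given for that threshold.

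Of the genes of plasma triglyceride lipolysis 6 of 7 were tested, and 2 rose and 2 fell in treated WT against untreated WT livers (median 0.36), 4 of 6 against 59.9% of all tested. Lpl, lipoprotein lipase, rose by 2.17 ± 0.18 (12.79 ± 0.15 in treated WT livers, n = 4, and 10.63 ± 0.51 in untreated WT livers, n = 3; limma, adjusted p = 1.96e-07), its endothelial anchor Gpihbp1 rose by 1.40, and Gpld1 dropped by 1.70. Gpihbp1 averaged 4.15 in untreated WT livers (SD 0.67, lowest array 3.37), near the detection level of 4, so the size of its rise is uncertain. Lpl is little made by adult hepatocytes and is known from macrophages. Lpl was lower in treated mutant than in treated WT livers (-0.55, adjusted p = 0.0254), and in antibiotic against treated WT livers Angptl4, an inhibitor of lipoprotein lipase, was higher (1.05, adjusted p = 0.0172). Each was the 1 member that passed of 6, against 28.6% of all tested in the mutant and 12.3% in the antibiotic comparison.

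Apob mRNA is edited in mouse liver by Apobec1, which creates the short form of the protein. Apobec1 had 9.42 ± 0.44 in treated WT livers (n = 4), against 7.54 ± 0.69 in untreated WT livers (n = 3), a rise by 1.88 ± 0.34 (limma, adjusted p = 0.00025), while its cofactor Rbm47 dropped by 1.06 (adjusted p = 1.9e-06), the 2 members tested of 3, with 59.9% of all tested called. Apobec1 was lower in treated mutant than in treated WT livers (-1.50, adjusted p = 0.00269). The edit itself is not measured by these probe sets. Apobec1 is known to be expressed in macrophages too, most of whose markers moved the same way in both comparisons (their part was not tested).

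Of the transcription factors that act on apolipoprotein genes 20 of 25 were tested, and 12 fell and none rose in treated WT against untreated WT livers, with 25.7% of all tested lower and 34.2% higher (median -0.44, with 0.09 over all tested). Ppara, the fatty acid receptor, dropped by 1.41 (adjusted p = 4.97e-05), the hepatocyte factor Cebpa by 1.39 (adjusted p = 3.45e-06) and Cebpb by 0.70 (adjusted p = 0.0031). Hnf4a, the gene of HNF4, fell as well (-0.28, adjusted p = 0.0267). Against treated WT livers, 4 of 20 rose and none fell in treated mutant livers (12.5% of all tested higher, 16.1% lower), among them Nr0b2, a bile acid-induced repressor (1.46, adjusted p = 0.00773), Foxa1 (0.51) and Rxra, the common partner of nuclear receptors (0.49, adjusted p = 0.0012). In antibiotic against treated WT livers 3 of 20 rose and none fell (4.47% of all tested higher, 7.86% lower): Nr0b2 (2.30 ± 0.36, 4.93-fold, adjusted p = 0.00205), the oxysterol receptor Nr1h3 (0.55) and Rxra (0.41). The lists were not set against other lists.

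**Figure D4:**
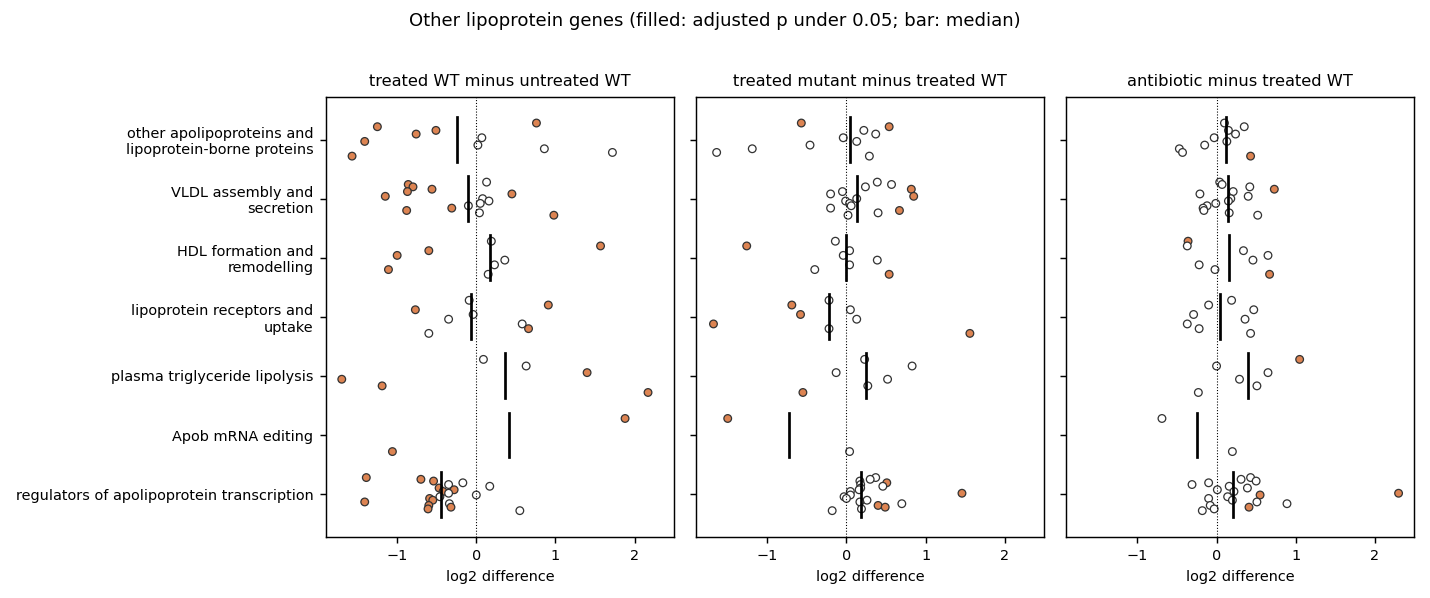
Log2 differences of the tested genes of 7 lists on lipoprotein biology (rows) in treated WT minus untreated WT, treated mutant minus treated WT and antibiotic minus treated WT (panels, same x axis). Each point is a gene by its brightest probe set, filled points have adjusted p under 0.05 and bars are list medians, which for the regulators lie at -0.44, 0.18 and 0.21.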

How the data were processed

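RNA from 15 mouse livers was labelled and hybridised to an Affymetrix expression array. The authors deposited 1 table of log2 values, summarised per probe set with GCRMA per the submitters' processing notes, which corrects background by probe base composition and normalises between arrays; version and settings are not given in the sources used here. The labels name no batch, scan date or pairing, and a description that mentions other ages and a resection contradicts the other labels and was not used. Replicates are numbered within a group in the order of their titles, as names only, and p-values measure the spread between arrays of different samples. Probe sets were named from the platform's annotation (34945 of 45101 had 1 gene symbol, 932 several).

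Probe sets of at least 4 on at least 3 arrays were kept (15541). Group means were fitted to all 15 arrays with limma 3.58.1 in R 4.3.3 (11 residual and 3.58 prior degrees of freedom, prior SD 0.214), and p-values of 6 comparisons were adjusted by Benjamini-Hochberg over all kept probe sets, with a threshold of 0.05. Pairs of probe sets were compared by exact permutation tests over arrays (scipy 1.17.1), adjusted over 21 tests. The fit was tested on simulated data with known changes.

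The members and lists were chosen with earlier results of these data known. Named were all members and, from each list and comparison, up to 3 passing genes with the largest changes, with Tlr4, Alb, Mki67 and Cyp2e1 as checks; Mttp, Hnf4a, Ran and the named markers were chosen after their values were seen. Alternatives were other normalizations, filters, probe set rules, weights, priors and samples in the fit, and leaving out each array. Sequences are RefSeq's (GRCm38.p6), with 7 of 10 genes matched by symbol.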

Additional observations from a re-analysis of the deposited data

Results flagged for a closer look

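In 48 groups of 4 arrays (16 probe sets in 3 groups), 5 held an array far from the others, where chance gives about 1 in 20. In 4 of the 5 it was treated mutant replicate 4, as the lowest of its group, with 14.15 for Apoa1 1438840_x_at (14.36 to 14.39 on the other mutant arrays), 14.12 for Apoa1 1455201_x_at (14.35 to 14.39), 13.77 for Apoc3 (13.97 or more) and 13.7 for Apoe (13.82 to 13.83). The Apoa1 probe sets share their gene and are not separate observations. The remaining one was antibiotic replicate 4 for Apoa4 1436504_x_at, at 13.66, with 14.02 to 14.08 on the other antibiotic arrays. None of these 5 probe sets passed in treated mutant or in antibiotic against treated WT livers. Without treated mutant replicate 4 the log2 difference of Apoc3 in treated mutant against untreated WT livers was -0.22 and no longer passed (limma, adjusted p = 0.0701).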

How the results depend on the processing

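No called member changed direction in any setting of any comparison. The higher Apoa4 and lower Apoa2, Apoc1, Apoc3 and Apoe levels in treated WT against untreated WT livers passed limma's test in every setting tried. The dimmer Apob probe set also passed as lower there in every setting that tested it. The count of 10 passing probe sets in that comparison ran from 7 (1 probe set per gene, 10 tested) to 15 (array weights), and from 8 to 11 when 1 array was left out. In treated mutant against treated WT livers the count of 1 became 3 with centred arrays, 3 with a trended and robust prior, 0 with probe sets averaged by gene and 0 in a fit of only the groups compared, and ran from 0 to 1 when 1 array was left out. With array weights it stayed at 1, but as Apoa5 (0.30, adjusted p = 0.0268), while Apom 1419095_a_at did not pass. In antibiotic against treated WT livers the count of 1 became 0 in a fit of only the groups compared and ran from 0 to 1 when 1 array was left out. In treated mutant against untreated WT livers the count of 9 became 14 with centred arrays and 7 both with quantile normalization and in a fit of only the groups compared, and ran from 7 to 10 when 1 array was left out. In antibiotic against untreated WT livers the count of 10 ran from 9 to 10 when 1 array was left out. Between the antibiotic and treated mutant groups the count of 0 became 1 with a trended and robust prior (Apoa4 1417761_at, 0.56, adjusted p = 0.0431) and ran from 0 to 2 when 1 array was left out. The causes were not tested. With centring, the share of higher calls among all passing probe sets became 41.4% in treated WT against untreated WT livers (57.1% as deposited). It became 55.8% in treated mutant against treated WT livers (43.8%) and 53.4% in antibiotic against treated WT livers (36.2%). No paired analysis was possible because the arrays are numbered from 1 to 15 across groups and the replicate numbers used here only name arrays. With no probe-level values, saturation of the bright probe sets could not be examined, and the small number of arrays limits what could pass.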
